A study of Homo sapiens with 36 samples.

Results

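The 29 genes described here encode enzymes of cholesterol synthesis, carriers that take up, move or export cholesterol, and the proteins that control the pathway through SREBP. They were listed by name, with earlier results of these data known, though the rule itself used no measured value. All 29 were found by Entrez gene number among the 26468 genes of the deposited table, and 27 of them passed the filter on low values that left 15542 genes for testing. The members below the filter are NPC1L1 and ABCA1. Total RNA was sequenced from 6 established human colon cancer cell lines, named in the labels as HCT 116, SW 480, HT-29, COLO 205, HCT-15 and COLO 320, each after 24 h of culture with either 0.5 µM JQ1 or DMSO, the solvent control. JQ1 is a small molecule that displaces BET bromodomain proteins from acetylated chromatin. Each of the 12 groups held 3 libraries. All cells were harvested while growing logarithmically, and the design asks how transcript levels change with JQ1. Whether the 3 libraries of a group stem from separate cultures is not stated in the labels. Every p-value below therefore reflects the spread between these libraries alone, which may be technical, except where the cell line is the unit.

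Cells make cholesterol from acetyl-CoA through mevalonate, short isoprenoids, squalene and lanosterol, and a branch of the same route supplies the lipid anchors of small GTPases. When membrane sterol is low, SCAP carries the SREBP transcription factors, encoded by SREBF1 and SREBF2, from the endoplasmic reticulum to the Golgi, where they are cut and released to switch on the synthesis genes together. INSIG1 and INSIG2 hold SCAP back when sterol is plentiful, and excess cholesterol is exported by ABC transporters whose genes are switched on by the oxysterol receptors LXR.

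SREBP is known to act at promoters through a sterol response element beside sites for NF-Y, which reads the CCAAT box, and for Sp1, which reads the GC box. Of the 25 members with a promoter to search, SREBF2 alone held the sterol response element searched for. INSIG1, HMGCS1 and STARD4 are targets with wide differences between lines. The sequences below show how the letters of these sites are laid out at these 4 members. Each is the 250 bases before the start of the gene in RefSeq, human assembly GRCh38.p14, written 5′ to 3′ on the gene's own strand, and capitals mark the sterol response element TCACNCCAC and the CCAAT box, which appears as ATTGG where it lies on the other strand.
SREBF2: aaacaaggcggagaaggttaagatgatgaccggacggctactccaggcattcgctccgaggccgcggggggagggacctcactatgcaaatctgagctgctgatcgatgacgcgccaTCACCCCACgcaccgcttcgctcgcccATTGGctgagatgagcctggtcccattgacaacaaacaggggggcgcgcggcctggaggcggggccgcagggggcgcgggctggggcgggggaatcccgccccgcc
INSIG1: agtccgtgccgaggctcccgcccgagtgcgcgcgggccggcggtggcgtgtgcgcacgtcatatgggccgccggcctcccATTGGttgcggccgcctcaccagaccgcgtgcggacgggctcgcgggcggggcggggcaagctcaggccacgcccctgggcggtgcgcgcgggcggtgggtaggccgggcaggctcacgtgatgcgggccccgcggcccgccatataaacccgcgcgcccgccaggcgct
HMGCS1: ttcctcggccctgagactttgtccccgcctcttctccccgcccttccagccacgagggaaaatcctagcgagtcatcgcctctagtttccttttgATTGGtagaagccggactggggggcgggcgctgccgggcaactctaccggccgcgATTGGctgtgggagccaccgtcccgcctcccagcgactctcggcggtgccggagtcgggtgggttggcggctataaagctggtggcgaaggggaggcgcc
STARD4: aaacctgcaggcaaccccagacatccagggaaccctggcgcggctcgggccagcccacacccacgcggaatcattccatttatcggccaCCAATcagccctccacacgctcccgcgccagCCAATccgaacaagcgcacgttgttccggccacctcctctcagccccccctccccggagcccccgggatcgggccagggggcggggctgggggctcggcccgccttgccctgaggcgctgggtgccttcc
The stretches are chr22:41832855-41833104 on the plus strand for SREBF2, chr7:155297628-155297877 on the plus strand for INSIG1, chr5:43313413-43313662 on the minus strand for HMGCS1 and chr5:111512536-111512785 on the minus strand for STARD4. By symbol, 25 of the 29 members matched a RefSeq promoter, with 33 promoters in all because some genes have several starts. ACAT2, FDFT1, SQLE and ABCG1 matched none and were not searched. The 250 bases before each start were searched on both strands. None of the 4 motifs searched contains another, though neighbouring matches can share letters. The element TCACNCCAC lay in 1 of the 33 member promoters, or 3.03%, against 0.883% of 35116 promoters of all genes. A CCAAT box lay in 20 of the 33 member promoters, or 60.6%, against 32.0% of all promoters. The GC box GGGCGG lay in 29 of 33, or 87.9%, against 42.6%. The E-box CACGTG, the site read by MYC among other factors, lay in 5 of 33, or 15.2%, against 6.35%. These are matches of letters in a fixed window and not measured sites.

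Sequencing depth ranged from 18.8 to 53.1 M gene reads per library around a median of 24.5 M. Levels are in RPKM, reads scaled to gene length and library size, so genes of different length can be compared. HEXIM1, a widely used readout of BET inhibition, rose in 6 of 6 lines, by 1.06 to 2.67 on the log2 scale. The summed level of the epithelial markers EPCAM, KRT8, KRT18, KRT19 and CDH1 was 1322 to 8736 RPKM in 5 lines and 48.3 to 59.5 RPKM in COLO 320, and its highest value was 3839 RPKM with DMSO and 8736 RPKM with JQ1. The markers did not move together. Mean log2 changes with JQ1 were 0.74 for KRT8, 0.57 for KRT18, 1.00 for KRT19, 0.32 for CDH1 and -0.54 for EPCAM. KRT8 and KRT18 were lower in COLO 320 (-0.076 and -0.29), and CDH1 was lower in SW 480 (-0.48). In COLO 320, KRT19 and CDH1 had DMSO means of 0.040 and 0.00736 RPKM. Fibroblast markers summed to at most 14.6 RPKM, in COLO 320, leukocyte markers to at most 5.26 RPKM and endothelial markers to at most 0.471 RPKM. The part of these differences in the results was not tested. In bulk samples of this kind, fewer cells of a kind and less RNA per cell cannot be told apart.

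Before treatment, the lines differed widely in their sterol genes. With DMSO, SW 480 had the lowest mean of the 6 lines for 14 of the 27 tested members, against 16% of all genes tested, and HCT-15 had the highest mean for 9, against 10.5%. INSIG1 ranged most among the abundant members, from 4.75 ± 0.385 RPKM (SD, n = 3) in SW 480 to 63.2 ± 1.58 RPKM in HCT-15. SQLE ranged from 17.9 ± 0.613 RPKM in SW 480 to 193 ± 2.47 RPKM in HT-29, and HMGCS1 from 7.99 ± 0.258 to 77.3 ± 1.46 RPKM in the same lines. SCAP varied least, from 19.6 ± 0.949 RPKM in COLO 205 to 28.6 ± 0.948 RPKM in COLO 320. The efflux gene ABCG1 was near 0 in COLO 320, at 0.00980 ± 0.00974 RPKM, and at 7.68 ± 0.364 RPKM in COLO 205. The DMSO level differed between lines for 27 of 27 tested members, where 98.8% of all genes did, so the share is close to the background.

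**Figure D1:**
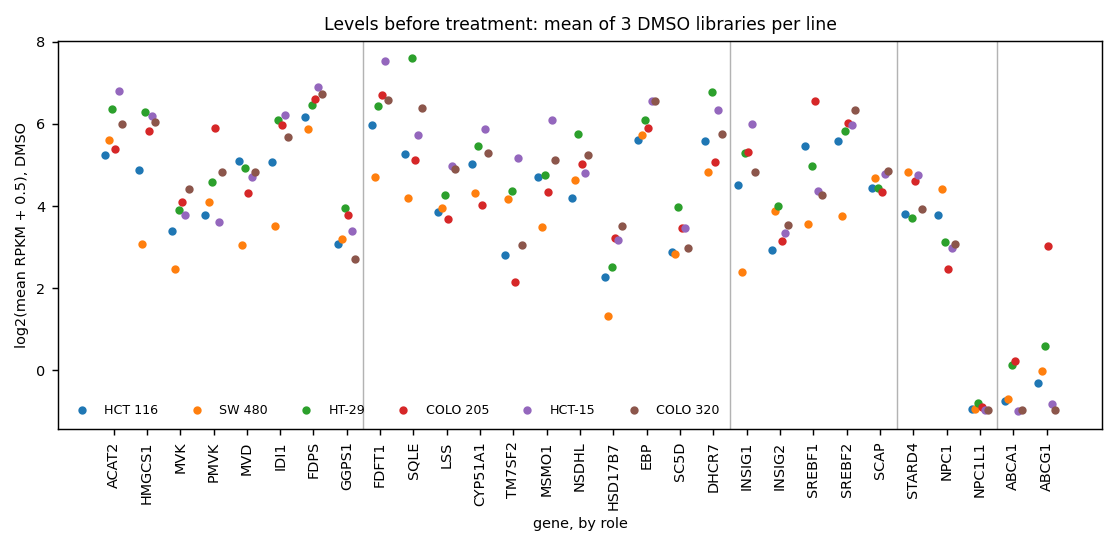
Mean level of each member over the 3 DMSO libraries of each line, as log2 of the mean RPKM plus 0.5 on the vertical axis, with genes ordered by role on the horizontal axis and 1 colour per line. SW 480 is lowest for 14 of the 27 tested members, and NPC1L1 and ABCA1 lie near the bottom in every line.

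After JQ1, the direction of the sterol genes depended on the line. Calls required a limma adjusted p below 0.05, and changes are differences of log2(RPKM + 0.5), JQ1 minus DMSO, a scale that understates the change of low genes. In HCT 116, 18 of 27 members fell and 5 rose, where 35.5% of all genes fell and 32.4% rose. In HT-29, 15 fell and 8 rose, against 37.3% and 36.6% of all genes. In COLO 205, 16 fell and 9 rose, against 38.6% and 34.2%, and the 33.3% of members that rose there was a share near that of all genes. These 3 lines had member medians of -0.29, -0.20 and -0.19, while the median of all genes was -0.0040, 0 and -0.012.

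SW 480 went the other way. There 17 of 27 members rose and 3 fell, where 33.9% of all genes rose and 40.1% fell, and the member median was 0.21 against -0.024 for all genes. HCT-15 lay between, with 14 higher and 7 lower against 34.8% and 35.4% of all genes, and a member median of 0.087 against 0. When total reads replaced the divisor used by the authors, the HCT-15 counts became 12 higher and 11 lower, where 4310 and 6820 of 15542 genes were. The member median there became -0.035, against -0.070 for all genes in that setting. The share of higher calls among all called genes in that line moved from 49.6% to 38.7%. In COLO 320, 12 members fell and 8 rose, against 37.2% and 31.0% of all genes, and the member median was -0.020 against -0.014, a median close to that of all genes.

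Across lines, 4 members rose in 6 of 6 lines, TM7SF2, GGPS1, SCAP and NPC1, where 11.2% of all genes did. By the same limma test 0 of the 27 fell in 6 of 6, where 11.7% of all genes did, and the nearest was CYP51A1, which missed the threshold in SW 480 (adjusted p = 0.266). The 5 that fell in at least 5 of 6 lines were ACAT2, FDPS, CYP51A1, EBP and STARD4, where 20.5% of all genes did. The counts of 4 and 5 of 27 are shares near those of all genes. Opposite calls in different lines were made for 14 of 27 members, against 33.6% of all genes. Among the 14, the only higher call of FDPS, of MVK and of STARD4 was lost in other settings, as given below. The share of all genes was not checked in this way.

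**Figure D2:**
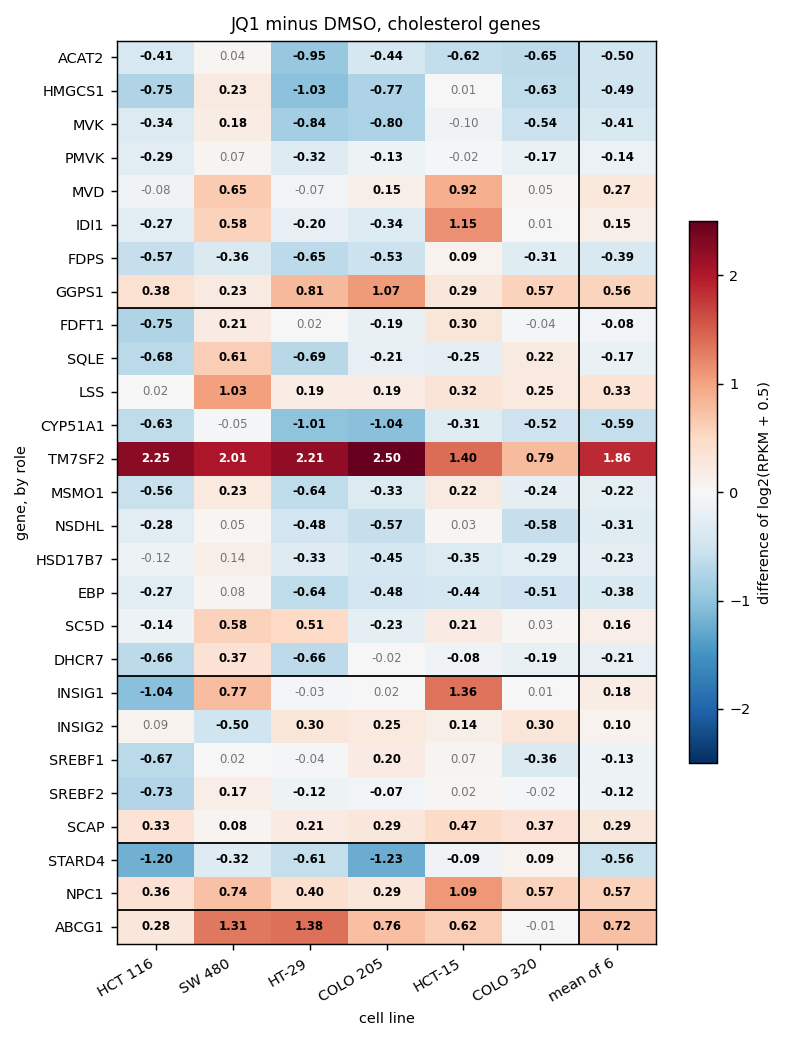
Change with JQ1 of each tested member (rows, by role) in each line and in the mean of the 6 lines (columns), as the difference of log2(RPKM + 0.5), with red for higher and blue for lower with JQ1. Bold numbers passed an adjusted p under 0.05. TM7SF2 is the reddest row, and the SW 480 column is mostly red where the HCT 116, HT-29 and COLO 205 columns are mostly blue.

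The first steps of the pathway, from acetyl-CoA to the isoprenoids, were mostly lower in HCT 116, HT-29, COLO 205 and COLO 320. Of the 8 members of this stretch, 6 fell and 1 rose in HCT 116, 6 fell and 1 rose in HT-29, 6 fell and 2 rose in COLO 205, and 5 fell and 1 rose in COLO 320, where 35.5%, 37.3%, 38.6% and 37.2% of all genes fell in the same order of lines. In SW 480, 5 rose and 1 fell, against 33.9% and 40.1% of all genes. In HCT-15, 4 rose and 1 fell, against 34.8% and 35.4%. With total reads as the divisor 3 rose and 4 fell there, where 4310 and 6820 of 15542 genes did, so both shares were near those of all genes. In that setting MVK (-0.21, adjusted p = 0.00303), PMVK (-0.14, adjusted p = 0.00921) and HMGCS1 became lower and FDPS was no longer called.

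HMGCS1, which makes HMG-CoA at the entry of the pathway, was among the members with the strongest fall. In HCT 116, HMGCS1 was at 30.2, 28.4 and 28.3 RPKM with DMSO and 17.9, 17.3 and 15.9 RPKM with JQ1. In HT-29, HMGCS1 was at 78.6, 75.7 and 77.7 RPKM with DMSO and 37.1, 38.0 and 37.9 RPKM with JQ1. In COLO 205, HMGCS1 was at 57.7, 53.4 and 56.8 RPKM with DMSO and 32.6, 33.1 and 31.8 RPKM with JQ1. All JQ1 libraries of these 3 lines lay below all DMSO libraries. In COLO 320, HMGCS1 was at 63.6, 67.5 and 67.3 RPKM with DMSO and 42.6, 42.3 and 43.1 RPKM with JQ1. In SW 480, HMGCS1 was at 7.86, 7.82 and 8.28 RPKM with DMSO and 9.71, 9.37 and 9.32 RPKM with JQ1. In HCT-15, HMGCS1 was at 71.9, 73.1 and 72.9 RPKM with DMSO and 73.9, 72.5 and 73.1 RPKM with JQ1. The groups did not overlap in COLO 320, where JQ1 was lower, or in SW 480, where JQ1 was higher, and they overlapped in HCT-15. HMGCS1 fell 2.04-fold in HT-29 (a change of -1.03 ± 0.034 SE, adjusted p = 4.1e-21), with changes of -0.75 in HCT 116, -0.77 in COLO 205 and -0.63 in COLO 320. It rose by 0.23 in SW 480 (adjusted p = 4.91e-07) and changed by 0.010 in HCT-15 (adjusted p = 0.828). With total reads as the divisor the HCT-15 value was -0.11 (adjusted p = 0.00324), so the call there depends on the scaling.

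ACAT2, the cytosolic thiolase that joins acetyl-CoA units, had the lowest mean change of this stretch. In HT-29, ACAT2 was at 84.8, 80.7 and 79.1 RPKM with DMSO and 40.2, 42.4 and 43.4 RPKM with JQ1. In HCT-15, ACAT2 was at 112, 114 and 109.8 RPKM with DMSO and 73.2, 71.0 and 73.8 RPKM with JQ1. In COLO 320, ACAT2 was at 62.6, 65.3 and 63.0 RPKM with DMSO and 40.8, 39.6 and 40.9 RPKM with JQ1. The JQ1 libraries lay below the DMSO libraries in each of these lines. In HCT 116, ACAT2 was at 38.0, 37.2 and 36.6 RPKM with DMSO and 26.7, 27.9 and 29.4 RPKM with JQ1. In COLO 205, ACAT2 was at 41.7, 39.99 and 43.3 RPKM with DMSO and 29.7, 33.2 and 28.7 RPKM with JQ1. In SW 480, ACAT2 was at 47.4, 48.9 and 48.1 RPKM with DMSO and 51.5, 47.1 and 50.4 RPKM with JQ1. The groups were apart in HCT 116 and COLO 205 and overlapped in SW 480. The changes were -0.41 in HCT 116, 0.044 in SW 480, -0.95 in HT-29, -0.44 in COLO 205, -0.62 in HCT-15 and -0.65 in COLO 320, with an SE of 0.042 each, and ACAT2 fell in all lines but SW 480 (adjusted p = 0.361). It fell in HCT-15 too (adjusted p = 1.39e-13), and its change there lay -0.14 from the mean of the other lines (adjusted p = 0.0117). The ACAT2 gene overlaps TCP1 and SOD2 in the RefSeq annotation, whose mean changes were -0.39 and 0.46.

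MVK and PMVK, the kinases that phosphorylate mevalonate in turn, fell in the same 4 lines as HMGCS1. MVK changed most in HT-29 (-0.84) and COLO 205 (-0.80), and PMVK changed by -0.13 to -0.32 in the lines where it fell. The rise of MVK in SW 480, 0.18 with overlapping groups, did not pass without JQ1 replicate 3 (0.097, adjusted p = 0.159), nor without either of DMSO replicates 2 (0.15, adjusted p = 0.0571) and 3 (0.15, adjusted p = 0.0514), nor in a fit of that line alone (adjusted p = 0.121). The fall of PMVK in COLO 205 did not pass once DMSO replicate 2 was left out (-0.11, adjusted p = 0.0739), nor without JQ1 replicate 3 (-0.11, adjusted p = 0.059), and was -0.027 with quantile scaling (adjusted p = 0.623). MVD, the decarboxylase that yields isopentenyl diphosphate, had its lowest change in HCT 116 (-0.082, adjusted p = 0.137, and 0.0185 in a fit of that line alone) and rose from 25.4 ± 0.945 to 48.4 ± 0.623 RPKM in HCT-15 and from 7.83 ± 0.654 to 12.5 ± 1.03 RPKM in SW 480. In HT-29 MVD changed by -0.073 (adjusted p = 0.176), and by -0.14 with total reads as the divisor (adjusted p = 0.00998). FDPS, which makes farnesyl diphosphate, fell in 5 lines, with changes of -0.31 to -0.65, including SW 480 (-0.36), and rose by 0.087 in HCT-15 (adjusted p = 0.00469). That rise was not called with total reads as the divisor (-0.035) or with quantile scaling (0.015, adjusted p = 0.649). MMAB, which overlaps MVK, and RUSC1-AS1, which overlaps FDPS, had mean changes of -0.40 and -0.36.

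IDI1, the isomerase of the isoprenoid building blocks, had the widest range among these first steps. In HCT-15, IDI1 was at 75.5, 74.2 and 74.0 RPKM with DMSO and 166, 164 and 167 RPKM with JQ1. In SW 480, IDI1 was at 10.7, 11.3 and 10.8 RPKM with DMSO and 16.8, 16.5 and 16.6 RPKM with JQ1. In COLO 320, IDI1 was at 48.5, 52.5 and 51.4 RPKM with DMSO and 50.6, 49.6 and 53.0 RPKM with JQ1. JQ1 libraries were above DMSO libraries in HCT-15 and SW 480 and overlapped with DMSO in COLO 320. In HCT 116, IDI1 was at 34.9, 31.8 and 33.4 RPKM with DMSO and 27.0, 26.7 and 28.9 RPKM with JQ1. In HT-29, IDI1 was at 68.2, 68.7 and 68.0 RPKM with DMSO and 59.1, 59.4 and 59.3 RPKM with JQ1. In COLO 205, IDI1 was at 62.8, 60.8 and 62.2 RPKM with DMSO and 50.2, 48.6 and 47.7 RPKM with JQ1. JQ1 was lower in all 3 of these lines with no overlap. IDI1 rose by 1.15 ± 0.031 (SE) in HCT-15 and by 0.58 in SW 480, and fell in COLO 205 (-0.34), HCT 116 (-0.27) and HT-29 (-0.20). The mean over lines, 0.15, rests on HCT-15, and without that line it was -0.044 (adjusted p = 0.00873), in the opposite direction. The overlapping genes WDR37 and IDI2-AS1 had mean changes of 0.24 and 0.16.

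GGPS1, which makes geranylgeranyl diphosphate for protein anchors rather than sterols, rose in every line. In COLO 205, GGPS1 was at 13.1, 13.3 and 13.3 RPKM with DMSO and 28.96, 28.4 and 27.3 RPKM with JQ1. In HT-29, GGPS1 was at 14.4, 14.9 and 15.8 RPKM with DMSO and 26.1, 27.0 and 27.3 RPKM with JQ1. In COLO 320, GGPS1 was at 6.08, 5.87 and 6.24 RPKM with DMSO and 8.89, 9.42 and 9.48 RPKM with JQ1. All JQ1 libraries lay above the DMSO libraries of the same line. In HCT 116, GGPS1 was at 8.07, 8.09 and 7.599 RPKM with DMSO and 10.1, 10.1 and 11.2 RPKM with JQ1. In HCT-15, GGPS1 was at 10.3, 9.77 and 9.73 RPKM with DMSO and 12.8, 11.3 and 12.7 RPKM with JQ1. In SW 480, GGPS1 was at 8.36, 8.85 and 8.84 RPKM with DMSO and 10.5, 10.01 and 10.2 RPKM with JQ1. The groups were again apart in each line, by less than in COLO 205. GGPS1 rose by 1.07 ± 0.043 (SE) in COLO 205, 2.09-fold, and by 0.23 in SW 480, the smallest of its rises (adjusted p = 3.41e-05). ARID4B, which overlaps GGPS1 in the annotation, had a mean change of 0.39.

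**Figure D3:**
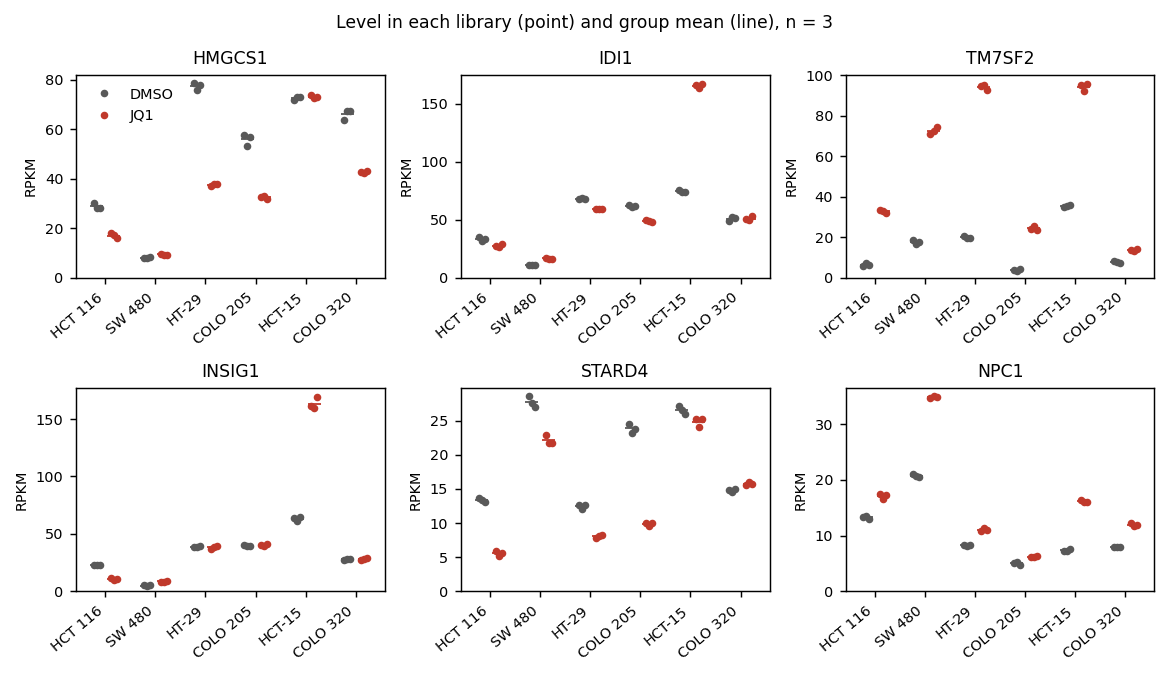
RPKM in each library (points) and group means (lines, n = 3) for 6 members, with DMSO in grey and JQ1 in red and lines along the horizontal axis. IDI1 and INSIG1 lie higher with JQ1 in HCT-15 and lower in HCT 116, while the JQ1 points of TM7SF2 and NPC1 lie above the DMSO points in every line.

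Most of the steps from squalene to cholesterol fell in HCT 116, HT-29, COLO 205 and COLO 320, and most rose in SW 480. Of the 11 members, 8 fell and 1 rose in HCT 116, 7 fell and 3 rose in HT-29, 8 fell and 2 rose in COLO 205, and 6 fell and 3 rose in COLO 320. Among all genes 35.5% to 38.6% fell and 31% to 36.6% rose in these 4 lines, so the shares that rose in HT-29 and COLO 320 were near the background. In SW 480, 7 rose and the other 4 did not pass the test, where 33.9% of all genes rose. In HCT-15, 5 rose and 5 fell, against 34.8% and 35.4%.

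SQLE, the squalene epoxidase, fell most in HT-29 and HCT 116. In HT-29, SQLE was at 193, 191 and 196 RPKM with DMSO and 118, 122 and 119.8 RPKM with JQ1. In HCT 116, SQLE was at 37.9, 37.7 and 38.2 RPKM with DMSO and 23.2, 22.8 and 24.4 RPKM with JQ1. In COLO 205, SQLE was at 34.2, 33.5 and 35.0 RPKM with DMSO and 29.1, 30.1 and 29.3 RPKM with JQ1. JQ1 was lower in all 3 lines with no overlap, and HT-29 kept the highest level of any line after treatment. In HCT-15, SQLE was at 51.7, 53.1 and 53.1 RPKM with DMSO and 44.0, 43.9 and 44.5 RPKM with JQ1. In SW 480, SQLE was at 18.0, 17.3 and 18.6 RPKM with DMSO and 28.3, 26.5 and 28.0 RPKM with JQ1. In COLO 320, SQLE was at 80.4, 83.9 and 84.4 RPKM with DMSO and 94.8, 96.3 and 98.3 RPKM with JQ1. JQ1 was lower in HCT-15 and higher in SW 480 and COLO 320, again with no overlap. SQLE fell in HT-29 (a change of -0.69 ± 0.026 SE) and HCT 116 (-0.68) and rose by 0.61 in SW 480 (adjusted p = 4.74e-18) and 0.22 in COLO 320 (adjusted p = 2.46e-08).

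CYP51A1, the lanosterol demethylase, had the lowest mean change of all 27 members. In COLO 205, CYP51A1 was at 15.6, 15.2 and 16.4 RPKM with DMSO and 7.77, 6.79 and 7.69 RPKM with JQ1. In HT-29, CYP51A1 was at 43.8, 43.7 and 43.1 RPKM with DMSO and 20.7, 21.4 and 22.1 RPKM with JQ1. In HCT 116, CYP51A1 was at 32.8, 31.2 and 32.3 RPKM with DMSO and 21.4, 20.04 and 20.4 RPKM with JQ1. JQ1 libraries were all lower, with a fold of 2.05 in COLO 205 and 2.01 in HT-29. In COLO 320, CYP51A1 was at 37.5, 39.8 and 38.6 RPKM with DMSO and 26.8, 26.8 and 26.4 RPKM with JQ1. In HCT-15, CYP51A1 was at 59.2, 58.5 and 57.3 RPKM with DMSO and 46.4, 47.8 and 47.0 RPKM with JQ1. In SW 480, CYP51A1 was at 18.4, 19.7 and 20.6 RPKM with DMSO and 19.3, 18.2 and 19.2 RPKM with JQ1. The groups were apart in COLO 320 and HCT-15 and overlapped in SW 480. The changes were -0.63 in HCT 116, -0.050 in SW 480, -1.01 in HT-29, -1.04 in COLO 205, -0.31 in HCT-15 and -0.52 in COLO 320, with an SE of 0.040. The SW 480 value had an adjusted p of 0.266, and without DMSO replicate 1 it was -0.092 with an adjusted p of 0.049, just past the threshold. CYP51A1-AS1, on the other strand, had a mean change of -0.44 at a level of at most 4.99 RPKM, and without strand information its reads cannot be told apart from those of CYP51A1.

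TM7SF2, a sterol reductase that acts on the product of CYP51A1, rose in 6 of 6 lines. In HT-29, TM7SF2 was at 20.4, 19.8 and 19.7 RPKM with DMSO and 94.8, 95.2 and 92.8 RPKM with JQ1. In COLO 205, TM7SF2 was at 3.66, 3.53 and 4.55 RPKM with DMSO and 24.1, 25.4 and 23.7 RPKM with JQ1. In HCT 116, TM7SF2 was at 5.83, 7.21 and 6.53 RPKM with DMSO and 33.3, 33.0 and 32.0 RPKM with JQ1. The JQ1 libraries lay far above the DMSO libraries, with folds of 4.63 in HT-29 and 4.75 in HCT 116. In SW 480, TM7SF2 was at 18.6, 16.7 and 17.5 RPKM with DMSO and 70.9, 72.4 and 74.5 RPKM with JQ1. In HCT-15, TM7SF2 was at 34.8, 35.2 and 36.1 RPKM with DMSO and 94.95, 92.3 and 95.7 RPKM with JQ1. In COLO 320, TM7SF2 was at 8.07, 7.77 and 7.42 RPKM with DMSO and 13.5, 13.4 and 14.3 RPKM with JQ1. No group overlapped, and COLO 320 had the smallest difference. TM7SF2 rose by 2.504 ± 0.060 (SE) in COLO 205, 5.67-fold, by 1.401 in HCT-15 and by 0.79 in COLO 320 (adjusted p = 1.76e-12). The COLO 320 change was -1.29 from the mean of the other 5 lines (adjusted p = 5.32e-16). Its mean change of 1.86 ± 0.024 (SE) was the highest of the 27 members.

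Among the other late enzymes, FDFT1, the squalene synthase, fell in HCT 116 from 62.7 ± 1.80 to 37.0 ± 1.83 RPKM and rose in HCT-15 from 184 ± 0.452 to 227 ± 4.05 RPKM. In COLO 205 FDFT1 fell (-0.19), and with quantile scaling the value was -0.067 and did not pass (adjusted p = 0.0852). Its small mean change of -0.075 became 0.060 (adjusted p = 0.000443) without HCT 116. LSS, the lanosterol synthase, rose in 5 lines, by 0.19 to 1.03, and in SW 480 went from 14.9 ± 0.194 to 31.1 ± 0.765 RPKM. In HCT 116 LSS changed by 0.016 (adjusted p = 0.678).

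MSMO1, NSDHL and HSD17B7, which remove the methyl groups of lanosterol, all fell in HT-29, COLO 205 and COLO 320. MSMO1 changed by -0.56 in HCT 116, 0.23 in SW 480, -0.64 in HT-29, -0.33 in COLO 205, 0.22 in HCT-15 and -0.24 in COLO 320 and passed the test in each. NSDHL fell in 4 lines, with changes of -0.28 to -0.58, and did not pass in SW 480 (0.050) or HCT-15 (0.028). In a fit of HCT 116 alone the NSDHL fall there had an adjusted p of 0.0673. HSD17B7 had the largest SE of the tested synthesis members (0.085) and fell in 4 lines, with changes of -0.29 to -0.45, with values of -0.12 in HCT 116 and 0.14 in SW 480 that did not pass. With quantile scaling the SW 480 value was 0.26 and passed (adjusted p = 0.00946), and the fall of HSD17B7 in HT-29 did not pass in a fit of that line alone (adjusted p = 0.0573). A transcribed pseudogene of HSD17B7, HSD17B7P2, is listed at up to 1.45 RPKM, and reads of near-identical copies may be divided between genes for HSD17B7, FDPS, IDI1 and CYP51A1.

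EBP and DHCR7 encode late steps of the sterol ring, an isomerase and the final reductase. EBP fell in 5 lines, with changes of -0.27 to -0.64, and in SW 480 changed by 0.075 (adjusted p = 0.0654). The SW 480 value passed with the replicate number as a block (adjusted p = 0.0422) and without JQ1 replicate 3 (0.12, adjusted p = 0.0082), as it did with quantile scaling (0.10, adjusted p = 0.0119) and with voom on recovered reads (0.090, adjusted p = 0.0267). DHCR7 fell in HCT 116 (-0.66), HT-29 (-0.66), HCT-15 (-0.083) and COLO 320 (-0.19), rose by 0.37 in SW 480 and changed by -0.017 in COLO 205, where quantile scaling gave 0.079 (adjusted p = 0.0039). SC5D, a desaturase of the ring, rose by 0.58 in SW 480, 0.51 in HT-29 and 0.21 in HCT-15 and fell in HCT 116 (-0.14) and COLO 205 (-0.23), with 0.027 in COLO 320 (adjusted p = 0.549).

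**Figure D4:**
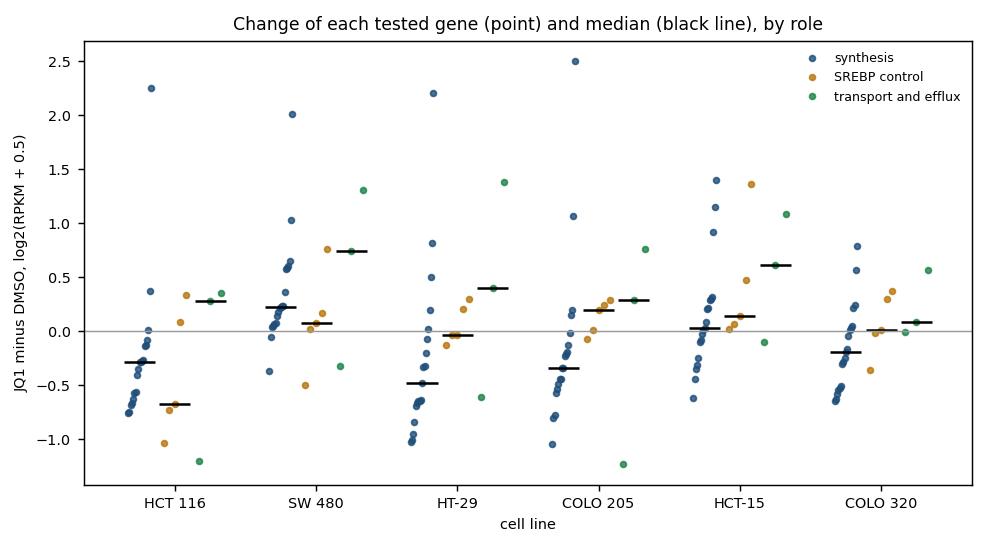
Change with JQ1 of each tested member (points) in each line, as the difference of log2(RPKM + 0.5), apart for synthesis (19 genes), SREBP control (5 genes) and transport with efflux (3 genes), with black lines at the medians. The synthesis median is 0.23 in SW 480 and between -0.48 and -0.19 in HCT 116, HT-29, COLO 205 and COLO 320.

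The 5 genes that control SREBP did not move one way as a group in every line. Of these 5, 3 fell and 1 rose in HCT 116, 3 rose and 1 fell in both SW 480 and COLO 205, and 2 rose and 1 fell in both HT-29 and COLO 320. In HCT-15, 3 rose and the other 2 were not called. Among all genes 31% to 36.6% rose and 35.4% to 40.1% fell in a line, so 2 of 5 higher is a share near the background.

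INSIG1 holds the SREBP carrier back and is itself a classic SREBP target. In HCT-15, INSIG1 was at 63.7, 61.5 and 64.5 RPKM with DMSO and 162, 159.8 and 169 RPKM with JQ1. In HCT 116, INSIG1 was at 22.4, 22.4 and 22.5 RPKM with DMSO and 11.1, 10.1 and 10.9 RPKM with JQ1. In SW 480, INSIG1 was at 4.99, 4.31 and 4.96 RPKM with DMSO and 8.27, 8.20 and 8.79 RPKM with JQ1. JQ1 was higher in HCT-15 and SW 480 and lower in HCT 116, with no overlap. In HT-29, INSIG1 was at 38.8, 38.6 and 39.1 RPKM with DMSO and 36.4, 38.4 and 39.4 RPKM with JQ1. In COLO 205, INSIG1 was at 40.3, 39.0 and 39.7 RPKM with DMSO and 40.3, 39.5 and 40.7 RPKM with JQ1. In COLO 320, INSIG1 was at 26.7, 28.3 and 28.2 RPKM with DMSO and 27.3, 27.8 and 28.7 RPKM with JQ1. The DMSO and JQ1 libraries overlapped in these 3 lines. INSIG1 rose by 1.36 ± 0.040 (SE) in HCT-15, 2.57-fold, and by 0.77 in SW 480, and fell in HCT 116 (-1.04, adjusted p = 5.38e-19). The other lines were at -0.030, 0.017 and 0.0097, with adjusted p from 0.532 to 0.872. With total reads as the divisor the HT-29 value was -0.099 (adjusted p = 0.0254), and with quantile scaling the COLO 205 value was 0.092 (adjusted p = 0.0449). Its range of 2.40 between lines was the widest of the 27 members. The mean over lines (0.18) turned to -0.055 (adjusted p = 0.00863) without HCT-15.

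SREBF2, the SREBP gene tied most closely to sterol synthesis, fell most in HCT 116. In HCT 116, SREBF2 was at 46.7, 48.1 and 48.0 RPKM with DMSO and 28.4, 28.7 and 28.4 RPKM with JQ1. In SW 480, SREBF2 was at 13.4, 12.9 and 12.97 RPKM with DMSO and 14.7, 14.6 and 15.2 RPKM with JQ1. In HT-29, SREBF2 was at 55.1, 56.4 and 56.2 RPKM with DMSO and 49.98, 51.4 and 52.6 RPKM with JQ1. The groups were apart in these 3 lines, lower with JQ1 in HCT 116 and HT-29 and higher in SW 480. In COLO 205, SREBF2 was at 63.2, 63.0 and 66.0 RPKM with DMSO and 60.2, 59.5 and 63.1 RPKM with JQ1. In HCT-15, SREBF2 was at 61.0, 62.0 and 64.7 RPKM with DMSO and 62.9, 65.0 and 62.9 RPKM with JQ1. In COLO 320, SREBF2 was at 80.1, 80.4 and 81.2 RPKM with DMSO and 79.3, 79.7 and 79.4 RPKM with JQ1. The groups overlapped in COLO 205 and HCT-15 and did not overlap in COLO 320, where the change of -0.020 did not pass (adjusted p = 0.496). SREBF2 fell in HCT 116 (a change of -0.73 ± 0.024 SE) and HT-29 (-0.12) and rose by 0.17 in SW 480. The fall in COLO 205 (-0.072) did not pass without DMSO replicate 3 (-0.051, adjusted p = 0.0745), nor when JQ1 replicate 2 was left out (-0.055, adjusted p = 0.0583), was not called in a fit of that line alone (adjusted p = 0.0808), and was 0.024 with quantile scaling (adjusted p = 0.434). In HCT-15 the value of 0.023 became -0.099 (adjusted p = 0.000514) with total reads as the divisor. Without HCT 116 the mean over lines was -0.0039 (adjusted p = 0.74), so its mean change of -0.12 rests on that line.

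SREBF1, whose product drives fatty acid genes above all, fell in HCT 116 and COLO 320 and rose in COLO 205. In HCT 116, SREBF1 was at 40.9, 43.4 and 45.8 RPKM with DMSO and 27.2, 26.5 and 27.3 RPKM with JQ1. In COLO 320, SREBF1 was at 18.9, 18.5 and 18.8 RPKM with DMSO and 14.9, 13.7 and 14.9 RPKM with JQ1. In COLO 205, SREBF1 was at 90.9, 90.7 and 97.6 RPKM with DMSO and 107, 103 and 109 RPKM with JQ1. No groups overlapped in these lines, and COLO 205 was the highest both before and after treatment. In SW 480, SREBF1 was at 12.2, 10.5 and 11.1 RPKM with DMSO and 10.9, 11.2 and 12.1 RPKM with JQ1. In HT-29, SREBF1 was at 30.9, 30.2 and 31.5 RPKM with DMSO and 30.4, 29.9 and 29.9 RPKM with JQ1. In HCT-15, SREBF1 was at 19.6, 19.8 and 21.0 RPKM with DMSO and 20.9, 21.1 and 21.5 RPKM with JQ1. The groups overlapped in all 3 lines. The changes were -0.67 in HCT 116, 0.017 in SW 480, -0.036 in HT-29, 0.20 in COLO 205, 0.072 in HCT-15 and -0.36 in COLO 320, with an SE of 0.045. In HT-29 the value was -0.11 (adjusted p = 0.0385) with total reads as the divisor. Its mean change of -0.13 also rested on HCT 116, and was -0.021 (adjusted p = 0.323) without it. RAI1, which overlaps SREBF1, had a mean change of -0.43.

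SCAP, the carrier of SREBP, rose in 6 of 6 lines by small amounts. In HCT-15, SCAP was at 27.7, 27.0 and 26.5 RPKM with DMSO and 37.5, 37.5 and 38.4 RPKM with JQ1. In COLO 320, SCAP was at 29.03, 27.5 and 29.2 RPKM with DMSO and 37.1, 37.4 and 36.6 RPKM with JQ1. In HCT 116, SCAP was at 20.7, 21.7 and 21.4 RPKM with DMSO and 26.9, 26.8 and 27.1 RPKM with JQ1. All JQ1 libraries were above all DMSO libraries. In COLO 205, SCAP was at 19.4, 18.8 and 20.7 RPKM with DMSO and 24.3, 24.0 and 23.9 RPKM with JQ1. In HT-29, SCAP was at 21.5, 21.4 and 20.5 RPKM with DMSO and 24.2, 23.8 and 25.4 RPKM with JQ1. In SW 480, SCAP was at 25.9, 24.7 and 25.3 RPKM with DMSO and 26.5, 26.5 and 27.1 RPKM with JQ1. The groups were apart here too, by the smallest margin in SW 480. The rises ran from 0.075 in SW 480 (adjusted p = 0.0194) to 0.47 in HCT-15 (adjusted p = 8.47e-15). The SW 480 call was lost with total reads as the divisor (0.056, adjusted p = 0.0731), with the replicate number as a block (adjusted p = 0.0522), without DMSO replicate 2 (0.059, adjusted p = 0.0991), and when JQ1 replicate 3 was left out (0.065, adjusted p = 0.0753). INSIG2, the other brake on SCAP, fell in SW 480, where INSIG1 rose, from 14.3 ± 0.254 to 9.997 ± 0.543 RPKM (-0.50), and rose by 0.14 to 0.30 in HT-29, COLO 205, HCT-15 and COLO 320. The groups overlapped in HCT-15, and the rise there was lost with total reads as the divisor (0.023, adjusted p = 0.673), in a fit of that line alone (adjusted p = 0.0697) and without DMSO replicate 1 (0.11, adjusted p = 0.0529). In HCT 116 INSIG2 changed by 0.089 (adjusted p = 0.0766), and by 0.12 without DMSO replicate 1 (adjusted p = 0.0255).

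Among the transport genes, STARD4, a soluble carrier that moves sterol between membranes and an SREBP target, fell strongly in COLO 205 and HCT 116. In COLO 205, STARD4 was at 24.5, 23.3 and 23.9 RPKM with DMSO and 9.99, 9.61 and 10.1 RPKM with JQ1. In HCT 116, STARD4 was at 13.7, 13.4 and 13.03 RPKM with DMSO and 5.92, 5.201 and 5.55 RPKM with JQ1. In HT-29, STARD4 was at 12.7, 12.05 and 12.7 RPKM with DMSO and 7.80, 8.05 and 8.24 RPKM with JQ1. The JQ1 libraries were far below the DMSO libraries in each line. In SW 480, STARD4 was at 28.7, 27.6 and 27.0 RPKM with DMSO and 23.0, 21.7 and 21.7 RPKM with JQ1. In HCT-15, STARD4 was at 27.2, 26.6 and 26.1 RPKM with DMSO and 25.3, 24.1 and 25.3 RPKM with JQ1. In COLO 320, STARD4 was at 14.9, 14.6 and 15.0 RPKM with DMSO and 15.6, 16.1 and 15.8 RPKM with JQ1. JQ1 was lower in SW 480 and HCT-15 and higher in COLO 320, with no overlap but with narrow gaps in the last 2 lines. STARD4 fell in COLO 205 (a change of -1.23 ± 0.034 SE), HCT 116 (-1.20), HT-29 (-0.61) and SW 480 (-0.32). In HCT-15 the change was -0.094 (adjusted p = 0.0166), and the call was lost without DMSO replicate 1 (-0.079, adjusted p = 0.0737), as it was when JQ1 replicate 2 was left out (-0.072, adjusted p = 0.0993). In COLO 320 it was 0.089 (adjusted p = 0.0243), and again the call rested on single libraries, with 0.079 when DMSO replicate 2 was left out (adjusted p = 0.0774) and 0.077 when JQ1 replicate 2 was (adjusted p = 0.0837).

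NPC1, which lets cholesterol leave the lysosome, rose in 6 of 6 lines. In HCT-15, NPC1 was at 7.14, 7.19 and 7.62 RPKM with DMSO and 16.4, 16.0 and 16.0 RPKM with JQ1. In SW 480, NPC1 was at 21.0, 20.7 and 20.5 RPKM with DMSO and 34.7, 35.1 and 35.0 RPKM with JQ1. In COLO 320, NPC1 was at 7.91, 7.89 and 7.96 RPKM with DMSO and 12.3, 11.8 and 11.9 RPKM with JQ1. JQ1 libraries were above DMSO libraries in each line, with the largest fold, 2.13, in HCT-15. In HT-29, NPC1 was at 8.33, 8.06 and 8.30 RPKM with DMSO and 10.8, 11.3 and 10.96 RPKM with JQ1. In HCT 116, NPC1 was at 13.3, 13.5 and 13.04 RPKM with DMSO and 17.5, 16.7 and 17.2 RPKM with JQ1. In COLO 205, NPC1 was at 5.06, 5.30 and 4.66 RPKM with DMSO and 6.09, 6.23 and 6.35 RPKM with JQ1. The groups were apart in these lines as well. NPC1 rose by 1.09 ± 0.031 (SE) in HCT-15, 0.74 in SW 480 and 0.29 in COLO 205 (adjusted p = 1.33e-09). RMC1, which overlaps NPC1, had a mean change of 0.38.

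NPC1L1, the intestinal cholesterol importer, was near the detection limit in every library, at 0.088 RPKM at most, and did not pass the filter. In HT-29, NPC1L1 was at 0.0438, 0.0808 and 0.0885 RPKM with DMSO and 0.0189, 0.00819 and 0.0208 RPKM with JQ1. In COLO 205, NPC1L1 was at 0.0405, 0.0392 and 0.0319 RPKM with DMSO and 0.0159, 0.0240 and 0.0225 RPKM with JQ1. In HCT-15, NPC1L1 was at 0.0147, 0.00701 and 0.00665 RPKM with DMSO and 0.0357, 0.0255 and 0.0366 RPKM with JQ1. JQ1 libraries were below DMSO libraries in HT-29 and COLO 205 and above them in HCT-15, on group totals of 25 and 8, 13 and 8, and 4 and 14 reads. In HCT 116, NPC1L1 was at 0.0225, 0.0139 and 0.0317 RPKM with DMSO and 0.00814, 0.0198 and 0.00832 RPKM with JQ1. In SW 480, NPC1L1 was at 0.0148, 0.0389 and 0.0153 RPKM with DMSO and 0, 0.0211 and 0.00769 RPKM with JQ1. In COLO 320, NPC1L1 was at 0.00708, 0.0138 and 0.0209 RPKM with DMSO and 0, 0.0168 and 0 RPKM with JQ1. The groups overlapped in these 3 lines, and a value of 0 allows up to 3 reads at 95% confidence, for counting error only.

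Of the exporters, ABCG1 rose in 5 of 6 lines. In HCT-15 and HCT 116 all its libraries were under 1 RPKM, so ABCG1 passed the filter through other lines. Its calls there enter the counts given for HCT-15 and HCT 116. In HT-29, ABCG1 was at 1.08, 0.837 and 1.09 RPKM with DMSO and 3.34, 3.31 and 3.56 RPKM with JQ1. In SW 480, ABCG1 was at 0.624, 0.381 and 0.471 RPKM with DMSO and 2.15, 1.86 and 1.85 RPKM with JQ1. In COLO 205, ABCG1 was at 8.03, 7.30 and 7.69 RPKM with DMSO and 14.1, 12.4 and 13.5 RPKM with JQ1. All JQ1 libraries were above the DMSO libraries, and COLO 205 had by far the highest level. In HCT-15, ABCG1 was at 0.0411, 0.0687 and 0.0838 RPKM with DMSO and 0.400, 0.297 and 0.400 RPKM with JQ1. In HCT 116, ABCG1 was at 0.305, 0.339 and 0.266 RPKM with DMSO and 0.456, 0.457 and 0.513 RPKM with JQ1. In COLO 320, ABCG1 was at 0.00991, 0 and 0.0195 RPKM with DMSO and 0.00965, 0.0117 and 0 RPKM with JQ1. The groups were apart in HCT-15 and HCT 116 at low levels, and COLO 320 had 3 reads with DMSO and 2 with JQ1, too few for a fold change. ABCG1 rose by 1.38 ± 0.073 (SE) in HT-29, 1.31 in SW 480, 0.76 in COLO 205, 0.62 in HCT-15 and 0.28 in HCT 116 (adjusted p = 0.00127). The added 0.5 shrinks changes at low levels, so this order is not that of the ratios of RPKM. In HCT-15 the mean went from 0.0645 to 0.366 RPKM, on 20 and 112 reads. That is a larger ratio than in HT-29, where the mean went from 1.00 to 3.41 RPKM.

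ABCA1, the other main exporter, stayed under 1 RPKM in all libraries and did not pass the filter. In HT-29, ABCA1 was at 0.581, 0.633 and 0.536 RPKM with DMSO and 0.0835, 0.114 and 0.120 RPKM with JQ1. In COLO 205, ABCA1 was at 0.681, 0.599 and 0.729 RPKM with DMSO and 0.575, 0.605 and 0.746 RPKM with JQ1. In SW 480, ABCA1 was at 0.132, 0.120 and 0.0993 RPKM with DMSO and 0.191, 0.179 and 0.189 RPKM with JQ1. JQ1 libraries were lower in HT-29, on 427 and 99 reads, higher in SW 480, on 96 and 155 reads, and overlapped with DMSO in COLO 205. In HCT 116, ABCA1 was at 0.0722, 0.107 and 0.0951 RPKM with DMSO and 0.106, 0.152 and 0.0800 RPKM with JQ1. In HCT-15, ABCA1 was at 0.00352, 0 and 0.00319 RPKM with DMSO and 0.00286, 0.00817 and 0.00704 RPKM with JQ1. In COLO 320, ABCA1 was at 0.00680, 0.0233 and 0 RPKM with DMSO and 0.0166, 0.00403 and 0.0102 RPKM with JQ1. The groups overlapped in HCT 116, HCT-15 and COLO 320, with at most 9 reads per group in the last 2. In HT-29 the 2 exporters lay in opposite directions, ABCA1 lower and ABCG1 higher with JQ1.

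The size of the JQ1 effect differed between the 6 lines for 27 of 27 tested members by limma's F test, where 93.3% of all genes tested did. Without the filter on low values the F test also called NPC1L1 and ABCA1, giving 29 of 29 members, where 17222 of 23499 genes were called. In that setting the members lower in HT-29 numbered 17 in place of 15, where 6273 genes were lower. NPC1L1 was near the detection limit in every library, and ABCA1 had at most 9 reads per group in HCT-15 and COLO 320. HSD17B7 had the weakest evidence (adjusted p = 0.000736), and without SW 480 its adjusted p was 0.156. INSIG1 had the strongest (adjusted p = 6.64e-23). Each line was also set against the mean of the other 5. In SW 480 the change was higher than in the others for 23 members and lower for 3, GGPS1, INSIG2 and SCAP, against 32.1% and 33.5% of all genes. In HCT-15 it was higher for 17 and lower for 4, against 34.8% and 25.9%, and with total reads as the divisor 7 were lower. In HCT 116 it was higher for 3 and lower for 18, against 32.5% and 28.4%. These 18 also count ABCG1, whose libraries in HCT 116 were all under 1 RPKM and which passed the filter through other lines. In HT-29 it was higher for 7 and lower for 17, against 35.5% and 29%. In COLO 205 it was higher for 6 and lower for 16, against 34.1% and 33.4%, and in COLO 320 higher for 6 and lower for 13, against 32.4% and 32.0%. The 13 include ABCG1, whose few reads in COLO 320 allow no fold change and which passed the filter through other lines, and 12 are lower without it. These 6 comparisons share libraries, since each line is part of the mean the others are set against.

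SW 480 and HCT-15 held the 2 largest of the 6 changes for 13 of 27 members, among them HMGCS1, IDI1, INSIG1, SREBF2 and NPC1, where 7.14% of all genes had that order. The count was 10 with total reads as the divisor (5.23% of all genes) and 10 with quantile scaling (6.36%). SW 480 alone held the largest change for 14 members, against 16.7% of all genes, and HT-29 the smallest for 9, against 16.6%. TM7SF2 and GGPS1 had another order, with their largest changes in COLO 205. These counts of order were made after the values were seen and carry no test.

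In the mean of the 6 lines, 11 members were higher and 16 lower, where 40.2% and 48.3% of all genes were, and the member median was -0.13 against -0.038 for all genes. The share of members that rose, 40.7%, was near that of all genes. The median was -0.26 for the 8 early steps, -0.21 for the 11 steps from squalene and 0.097 for the 5 genes of SREBP control. With the cell line as the unit, so that the spread between lines enters the test, 5 were called higher and 4 lower, against 18.1% and 19.9% of all genes. Both shares were near those of all genes. The higher ones were TM7SF2, GGPS1, SCAP, NPC1 and ABCG1, and the lower ones were ACAT2, CYP51A1, FDPS and EBP. The ABCG1 call is limited by low levels. Its mean includes COLO 320, with 3 reads with DMSO and 2 with JQ1. It also includes HCT-15 and HCT 116, where all libraries were under 1 RPKM. STARD4 (-0.56) had an adjusted p of 0.0522 in that fit and HMGCS1 (-0.49) one of 0.0571.

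Other genes of the pathway were taken from lists written down with the members. Of 10 genes for SREBP cleavage, INSIG turnover and NF-Y, 5 rose and 5 fell in the mean of the lines, where 40.2% of all genes rose and 48.3% fell, with a median of -0.047 against -0.038 for all genes. RNF145, a ubiquitin ligase that acts on SCAP, fell in 6 of 6 lines (mean -0.52), and NFYA, a subunit of NF-Y, rose in 6 of 6 (mean 0.58), while NFYB and NFYC fell in 6 of 6 (means -0.40 and -0.22). Of 11 fatty acid targets of SREBP, 5 rose and 6 fell in the mean (median -0.082). ELOVL6, a fatty acid elongase, had the lowest mean, -1.04 ± 0.017 (SE), and fell in 6 of 6 lines, with changes of -0.38 in COLO 205 to -1.55 in HT-29, SW 480 included (-1.50). FADS2, a fatty acid desaturase, had the highest mean (0.47), which rested on COLO 205 (2.67) and was 0.027 without that line (adjusted p = 0.267). By line, 8 of these 11 rose and 3 fell in HCT-15, 5 rose and 4 fell in SW 480, 4 rose and 6 fell in HT-29, 4 rose and 7 fell in COLO 205, 2 rose and 7 fell in HCT 116, and 1 rose and 6 fell in COLO 320, against 31% to 36.6% of all genes higher and 35.4% to 40.1% lower in a line.

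Of 10 genes that use isoprenoids, 3 rose and 7 fell in the mean (median -0.29), against the same 40.2% and 48.3% of all genes, which also stand beside the next lists. PDSS1, which builds the tail of coenzyme Q, fell in 6 of 6 lines (mean -0.70), and FNTA, a subunit shared by the prenyl transferases, rose in 6 of 6 (mean 0.51), while its partner FNTB fell in 6 of 6 (mean -0.56). Of 10 tested genes for uptake and intracellular handling, 7 rose and 3 fell in the mean (median 0.15), and SOAT2 was too low to test. TMEM97, a sterol-regulated membrane protein, fell in 6 of 6 lines (mean -0.78). NPC2, the soluble partner of NPC1, rose in 5 lines, by 0.20 to 1.32, and fell in SW 480 (-0.15), the line where NPC1 rose by 0.74. Of 6 tested LXR and efflux genes, 2 rose and 2 fell in the mean (median 0.027), and ABCG4, ABCG5, ABCG8 and CH25H were too low to test. MYLIP, an LXR target, rose in 6 of 6 lines (mean 0.81), by 0.42 in COLO 320 to 1.26 in HCT-15.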

How the data were processed

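The deposited values are RPKM per gene, computed by the authors. The tools GSNAP, DESeq and limma are named, without roles, per the submitters' processing notes, and their versions are not given in the sources used here. As build these notes list NCBIM37, a mouse assembly name, although the gene numbers are human, so no coordinates are given for the measured genes. Symbols came from a RefSeq table of GRCh38.p14 by Entrez number. A TruSeq RNA kit was used per the labels' protocols, and strandedness is not stated, so reads of overlapping and antisense genes cannot be told apart. Columns were matched to samples through the identifier in each sample description, and 0 value columns stayed unmatched.

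Whole reads were recovered from the steps between RPKM values for 23499 genes, 100% of those above 0, within 0.01 read. For a gene of 1 kb, 1 read corresponds to 0.0191 to 0.0524 RPKM, depending on the library. Replicates differed by a chi-square per gene of 1.22 to 3.20, so none was counted as a copy of another. That value cannot tell libraries of the same culture or RNA from libraries of separate cultures.

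limma 3.58.1 in R 4.3.3 was fitted to log2(RPKM + 0.5) of the 15542 genes at or above 1 RPKM in at least 3 of 36 libraries, with 12 group means, moderated variances and a trend. The contrasts took JQ1 minus DMSO within a line, the mean of these over lines, a line minus the mean of the other 5, and F tests of differences between lines in the effect and in the DMSO level. All p-values are two-sided and Benjamini-Hochberg adjusted over all genes tested. The fit was tested on simulated data. Other alternatives were pseudocounts of 0.1 and 1, no filter, total reads as divisor, quantile scaling, limma voom with TMM on the recovered reads, a replicate block, single-line fits, the cell line as unit, and leaving out each library or line.

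Values in every library are given for SREBF1, SREBF2, INSIG1, HMGCS1, SQLE, STARD4, NPC1, NPC1L1, ABCA1 and ABCG1 and, in each role group, for the members with the lowest mean, the highest mean and the widest range of change. Of each other pathway list, the genes with the lowest and highest mean were named, and NFYB, NFYC and FNTB were added after their values were seen. Not every gene under this rule is reported here. The members and lists were chosen with earlier results of these data known.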

Additional observations from a re-analysis of the deposited data

Results flagged for a closer look

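The JQ1 effect differed in size between the 6 lines for every tested member by limma's F test of the interaction of line and treatment, and the adjusted p-values follow. Among the mevalonate and isoprenoid steps they were 2.75e-13 for ACAT2, 1.33e-19 for HMGCS1, 2.07e-11 for MVK, 2.44e-05 for PMVK, 3e-14 for MVD, 4.01e-22 for IDI1, 1.12e-15 for FDPS and 6.03e-13 for GGPS1. Among the steps from squalene onward they were 1.81e-16 for FDFT1, 2.53e-22 for SQLE, 4.76e-17 for LSS, 1.85e-15 for CYP51A1, 1.83e-16 for TM7SF2, 6.69e-15 for MSMO1, 1.71e-09 for NSDHL, 0.000736 for HSD17B7, 4.56e-12 for EBP, 7.17e-15 for SC5D and 3.05e-21 for DHCR7. For the control of SREBP they were 6.64e-23 for INSIG1, 5.05e-12 for INSIG2, 1.97e-12 for SREBF1, 1.55e-18 for SREBF2 and 9.82e-09 for SCAP. For transport and efflux they were 1.39e-20 for STARD4, 1.55e-15 for NPC1 and 6.08e-13 for ABCG1. Since 93.3% of all genes tested also differed, a difference between lines is not particular to these genes. For HSD17B7 the adjusted p was 0.156 without SW 480, so its difference between lines rests on that line.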

How the results depend on the processing

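For 226 single-gene results under 36 settings that each left out 1 library and 15 other settings, 5345 of 5441 values kept their direction and their side of the threshold, 49 lost the call, 14 gained it and 33 changed sign. The counts of members called moved by over 1.5 times in the settings named next. With total reads as the divisor, 11 members were lower in HCT-15 and 7 were lower there than in the other lines, against 7 and 4. Among all 15542 genes, 6820 were lower in HCT-15 in that setting, in place of 5503. Taking each cell line as 1 unit, the mean over lines had 5 members higher and 4 lower, and 2 synthesis members higher and 4 lower, against 11, 16, 6 and 13. Leaving out 1 library at a time gave 1 to 2 lower synthesis members in SW 480, the second without DMSO replicate 1.

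With total reads as the divisor, values changed sign for LSS in HCT 116 (-0.0090), SREBF1 in SW 480 (-0.0013), FDFT1 in HT-29 (-0.051), DHCR7 in COLO 205 (0.0021), and in HCT-15 for HMGCS1 (-0.11), FDPS (-0.035), NSDHL (-0.093), SREBF1 (-0.048) and SREBF2 (-0.099). With quantile scaling they did for INSIG1 in HT-29 (0.0094), DHCR7 (0.079) and SREBF2 (0.024) in COLO 205, HMGCS1 (-0.047) and SREBF2 (-0.0085) in HCT-15, and FDFT1 (0.012), SREBF2 (0.049) and ABCG1 (0.015) in COLO 320. SREBF2 in COLO 320 was 0.00069 with voom. Without HCT 116 the mean of FDFT1 was 0.060, and without HCT-15 the means of IDI1 and INSIG1 were -0.044 and -0.055. Leaving out 1 library at a time gave ranges that cross 0 for LSS in HCT 116 (-0.025 to 0.046), SREBF1 in SW 480 (-0.031 to 0.077), INSIG1 in HT-29 (-0.054 to 0.0014), PMVK in HCT-15 (-0.053 to 0.023) and, in COLO 320, IDI1 (-0.023 to 0.032), INSIG1 (-0.017 to 0.027), ABCG1 (-0.021 to 0.0062) and SC5D (-0.0030 to 0.051), none of them called in the full data.

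No pairing by replicate number was seen: 0 of 18 same-numbered pairs of DMSO and JQ1 libraries had deviations correlated above 0.1 (-0.148 to 0.0492). Differently numbered pairs ran from -0.115 to 0.132, so the 0.1 limit lies within that spread and a paired design is not excluded. With the replicate number as a block, 17 members rose and 3 fell in SW 480, as without it, but EBP passed (adjusted p = 0.0422), which made 13 in place of 12 synthesis members higher, and SCAP did not (adjusted p = 0.0522). No other count within a line or over the lines changed, and counts against the other 5 lines moved by at most 1. Depth limits NPC1L1, ABCA1 and, in COLO 320, ABCG1.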
